A study of Homo sapiens with 6 samples.

Results

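The genes examined were the D cyclins and the G1 checkpoint they act on: CCND1, CCND2, CCND3, CDK4, CDK6, RB1, CDKN2A, CDKN2C, CDKN1B and E2F1. Members were all probe sets annotated to one of these genes and to no other. Of the 10 genes 9 had such probe sets, 24 probe sets in all of 54613 that were not controls; the named probe sets of the whole series stood for 19775 genes. The level of CDKN2C was not analysed here. RNA came from CD24+ and CD24- cells sorted by flow cytometry from 3 human lines, ARP1, OCI-MY5 and OPM2. They derive from multiple myeloma, the malignancy of antibody-secreting plasma cells. The lines were cultured in RPMI-1640 with serum and antibiotics, and the labels give no other treatment, genotype or passage. Each line gave 1 array of each fraction, so a group held 3 arrays and a line 2, and this number limits the precision of every comparison. The labels do not say whether the arrays of a line came from separate cultures, so the tests between lines measure a spread that holds fraction and handling together.

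Entry into the cell cycle is set in G1. The 3 D cyclins bind the kinases CDK4 and CDK6, the complexes phosphorylate the retinoblastoma protein RB1, and RB1 then releases E2F transcription factors such as E2F1, which switch on genes of DNA synthesis. Inhibitors of the INK4 class, among them the products of CDKN2A and CDKN2C, block CDK4 and CDK6, while CDKN1B (p27) binds cyclin and kinase complexes more widely. Myelomas are known to express at least one D cyclin above the level of normal plasma cells, often through a chromosomal translocation that drives CCND1, CCND3 or, by way of MAF or FGFR3 and NSD2, CCND2.

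The values are linear MAS5 intensities. A pair of values for a line gives its CD24+ array first and its CD24- array second. Different probe sets bind with different strength, so intensities were compared between arrays for the same probe set and not between probe sets. No detection calls were used. As a gauge of background the TrpnX control probe sets, which match a bacterial transcript, had intensities from 2.23 to 96.4; the highest on a given array ran from 10.3 to 96.4. Of the 24 member probe sets 18 lay above the highest TrpnX value of their array on all 6 arrays, 1 lay at or below it on all 6, and 5 were mixed. The CD24+ array of OPM2 stood apart: the geometric mean of its spike-in controls was 37362, against 6175 to 7399.5 on the others, and its median intensity 135.1 against 68.9 to 84.0. The 3′ to 5′ signal ratio of ACTB, which grows as RNA becomes shorter, was 2.47 and 2.63 on the ARP1 arrays, 7.54 and 27.1 on those of OPM2 and 9.36 and 23.2 on those of OCI-MY5. The ratio was lower in ARP1 than in both other lines, and its part in the differences from ARP1 was not tested. CD24, the gene of the sort marker, has 6 probe sets, which read 1.69 to 140.3, and 4 of the 36 values exceeded the highest TrpnX value. None of the 6 was higher on the array labelled CD24+ in all 3 lines, so the RNA values do not bear out the labels of the fractions; the protein that was sorted on was not measured here. Of 8 plasma cell markers 8 exceeded every TrpnX value on all 6 arrays, with summed intensities of 113700 to 254700 on CD24+ and 109900 to 182400 on CD24- arrays. Of 16 markers of B, T, myeloid, fibroblast and erythroid cells 1, COL1A1, did so on all 6 arrays. HBB did on 5, the B cell marker PAX5 on 4 (median 302.8) and the myeloid marker CSF1R on 3. CD3D, CD3G, CD14 and ALAS2 did so on none, and the rest on 1 or 2.

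CCND2 was the D cyclin with the clearest difference between lines, and OPM2 had the most of it. Its brightest probe set, 200953_s_at, read 19168 and 18742 in ARP1, 23543 and 27575 in OCI-MY5, and 42904 and 37916 in OPM2. Both OPM2 arrays lay above the other 4, and the lowest pair was that of ARP1. Probe set 200951_s_at read 1999.9 and 1864 in ARP1, 1869.9 and 1915 in OCI-MY5, and 6334 and 7761 in OPM2. Here ARP1 and OCI-MY5 overlapped and OPM2 stood well above both. Probe set 200952_s_at read 301 and 370.5 in ARP1, 364 and 620 in OCI-MY5, and 852 and 1613 in OPM2. Probe set 231259_s_at was dim, with 113 and 119 in ARP1, 58.8 and 80.3 in OCI-MY5, and 286 and 151 in OPM2. On 4 of 4 CCND2 probe sets both OPM2 arrays lay above the other 4 arrays, which held for 6 of the 24 member probe sets and for 16.8% of all probe sets.

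Differences between lines are given as log2(intensity + 16), with a standard error, from 1 limma fit over all 54613 probe sets, and p-values were adjusted over all of them by the method of Benjamini and Hochberg. A call means an adjusted p below 0.05. CCND2 was higher in OPM2 than in ARP1 by 1.85 ± 0.17 on 200951_s_at (3.61-fold, limma adjusted p = 6.73e-05), by 1.76 ± 0.35 on 200952_s_at (adjusted p = 0.00824) and by 1.09 ± 0.19 on 200953_s_at (2.13-fold, adjusted p = 0.00364). Against OCI-MY5 the same probe sets were higher in OPM2 by 1.88 ± 0.17 (adjusted p = 5.45e-05), 1.27 ± 0.35 (adjusted p = 0.0433) and 0.66 ± 0.19 (adjusted p = 0.0487). These comparisons share the OPM2 arrays. The size of the difference therefore depended on the probe set, from 1.58-fold to 3.68-fold against OCI-MY5 over the called ones. On 231259_s_at the differences were 0.77 ± 0.58 and 1.40 ± 0.58, and neither was called. Between OCI-MY5 and ARP1 no CCND2 probe set was called, with differences from -0.64 to 0.49. Leaving out any 1 array kept the 200951_s_at calls (adjusted p at most 0.00459 against ARP1 and 0.00169 against OCI-MY5), and without the OPM2 CD24+ array the differences were 2.00 and 2.03. The calls of 200952_s_at and 200953_s_at against ARP1 were lost without either ARP1 array, with adjusted p of 0.0659 and 0.11 for the first and 0.0598 and 0.0656 for the second, and against OCI-MY5 the calls of 200952_s_at and 200953_s_at were lost under 5 of 6 such omissions each, with adjusted p up to 0.326 and 0.415.

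**Figure D1:**
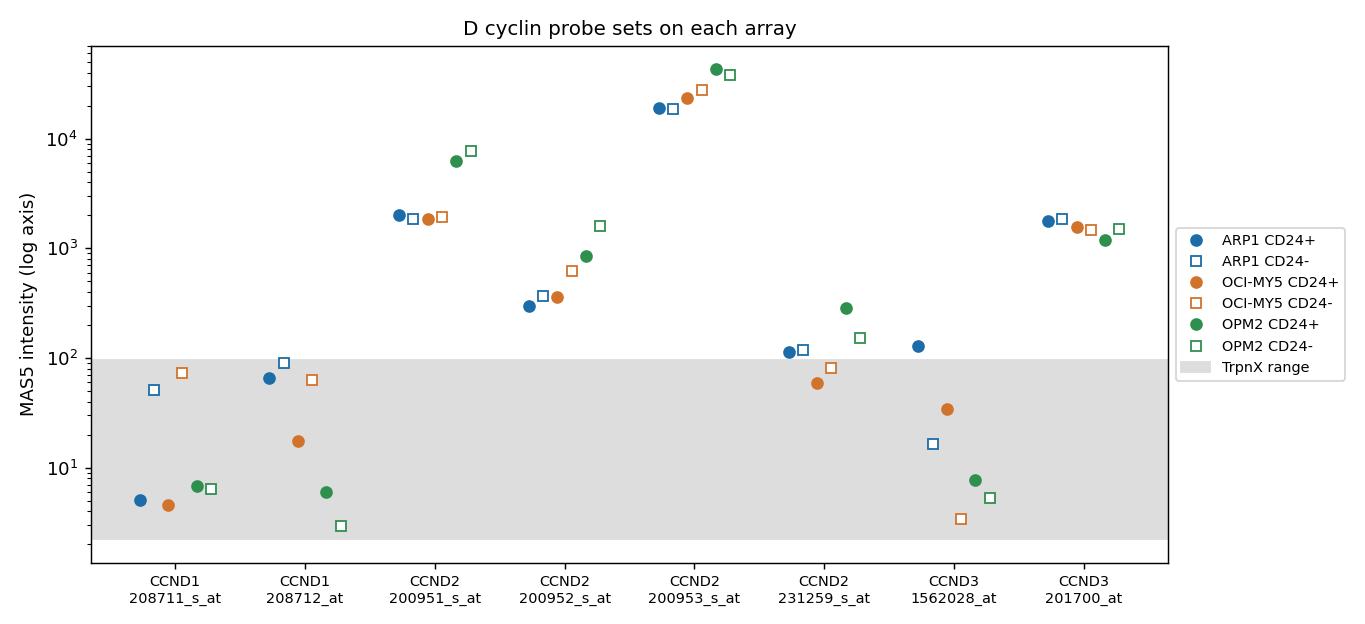
MAS5 intensity (log axis) of the 8 D cyclin probe sets on each of the 6 arrays, with 1 point per array, coloured by line and filled for CD24+. The grey band is the range of the TrpnX controls, 2.23 to 96.4; the CCND1 points lie inside this range pooled over arrays, and the OPM2 points of CCND2 lie above those of the other lines.

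CCND1, the cyclin driven by the t(11;14) translocation of myeloma, gave values near the background controls, within their range on both OPM2 arrays and partly above it in ARP1 and OCI-MY5. Probe set 208711_s_at read 5.05 and 51.2 in ARP1, 4.59 and 73.0 in OCI-MY5, and 6.82 and 6.41 in OPM2. Probe set 208712_at read 65.9 and 90.3 in ARP1, 17.4 and 63.4 in OCI-MY5, and 6.02 and 2.94 in OPM2. All 12 of these values lay below the highest TrpnX value of any array, a limit chosen after the data were seen. Against the highest of their own array 3 of 6 values on 208712_at were above it, both of ARP1 and 1 of OCI-MY5, and 1 of 6 on 208711_s_at, that of OCI-MY5 CD24-. In OPM2 both CCND1 probe sets lay within the background range of both arrays. Both OPM2 arrays lay below the other 4 on 2 of 24 member probe sets, 208712_at and that of CDKN1B, and on 13.1% of all probe sets. On 208712_at the arrays of the 3 lines did not overlap, a pattern whose share over all probe sets was not computed. OPM2 minus ARP1 was -2.19 ± 0.77 on it (limma adjusted p = 0.11), which was not called. With the OPM2 values at the background limit of their arrays no fold can be given.

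CCND3 had one bright probe set whose level differed little between the lines. Probe set 201700_at read 1764 and 1846 in ARP1, 1559.5 and 1478 in OCI-MY5, and 1184 and 1516 in OPM2. Both ARP1 arrays were the highest, and the OPM2 and OCI-MY5 arrays overlapped. OPM2 minus ARP1 was -0.42 ± 0.19 (limma adjusted p = 0.213), OPM2 minus OCI-MY5 -0.18 ± 0.19 (adjusted p = 0.642) and OCI-MY5 minus ARP1 -0.25 ± 0.19 (adjusted p = 0.719). Without the OPM2 CD24+ array the first became -0.25 ± 0.15 and the second -0.0014 ± 0.15. The other probe set, 1562028_at, read 128 on the ARP1 CD24+ array and 3.42 to 33.9 on the other 5, all 5 within the background range of their array. At the limit of each array's own controls, CCND2 was above background on all 6 arrays on 4 of 4 probe sets, CCND3 on 1 of 2 and CCND1 on 0 of 2. At the highest TrpnX value of any array this held for 3 probe sets of CCND2, 1 of CCND3 and 0 of CCND1.

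The genes whose representative probe sets, the brightest on average, followed those of the D cyclins most closely over the 6 arrays were sought among 7664 genes with a log2 range of at least 2. For CCND2 they were SLC15A4 (Pearson r = 0.994), MAP3K2-DT (0.992) and SPRY2 (0.992), a feedback inhibitor of receptor tyrosine kinase signalling. For CCND3 they were PGD (0.993), an enzyme of the pentose phosphate pathway, SHROOM2 (0.992) and OR51B5 (0.992). For CCND1, within the background range on 3 of these 6 arrays, they were PCOLCE (0.988), ZNF674-AS1 (0.988) and LINC01234 (0.982). Several of these genes reached down into the TrpnX range pooled over arrays. Their lowest intensities were 5.28 for MAP3K2-DT, 25.35 for SPRY2, 13.8 for SHROOM2, 25.93 for OR51B5, 7.76 for PCOLCE and 48.04 for LINC01234. The highest of so many correlations over 6 arrays from 3 lines can be close to 1 for unrelated genes. How far these correlations record the order of the lines was not tested, and they are given as a description.

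Among genes of the translocations that go with CCND2, MAF read 7031.5 and 9064 in ARP1, 9341 and 9832.5 in OCI-MY5 and 2295 and 2665 in OPM2 on its brightest probe set. FGFR3, the receptor kinase driven by t(4;14), read 149.8 and 58.7 in ARP1, 383 and 362 in OCI-MY5, and 55028 and 44707 in OPM2. Of the ARP1 arrays 1 of 2, CD24+, was above its background range, so the size of the difference from ARP1 rests in part on a value at background. Against ARP1, MAF was lower in OPM2 by a difference of -1.68 ± 0.18 (limma adjusted p = 0.000176), and FGFR3 was higher by 8.80 ± 0.32 (adjusted p = 8.92e-08) and NSD2 by 1.06 ± 0.18 (adjusted p = 0.00367). All genes of this list were chosen with earlier results of these data known, and NSD2 after its values were seen. Of the 6 genes of this list with a probe set, 4 were higher and 1 lower in OPM2 in the comparison with ARP1, with the same counts against OCI-MY5. After centring these became 1 and 1 against ARP1 and 2 and 1 against OCI-MY5, and without the intensity trend 1 and 0 in each. In the main fit 10.7% and 10.3% of all probe sets were called in these comparisons, and 24.5% and 23.4% of those at or above the median brightness. The list includes ITGB7, CCR1 and NUAK1, known targets of MAF. ITGB7 and CCR1 were higher in OPM2 than in ARP1, by 1.75 ± 0.20 (adjusted p = 0.000298) and 1.18 ± 0.17 (adjusted p = 0.00146), while NUAK1 was at 0.33 ± 0.20 (adjusted p = 0.384). After centring the calls of NSD2, ITGB7 and CCR1 against ARP1 were lost (adjusted p = 0.247, 0.075 and 0.214).

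Of the catalytic partners, CDK6 differed between lines and CDK4 did not pass the test. The 7 CDK6 probe sets fell into 3 bright and 4 dimmer ones. On 224851_at the intensities were 4623 and 5147 in ARP1, 14420.3 and 14625 in OCI-MY5, and 9009 and 12996 in OPM2. On 224847_at they were 5070.3 and 4109 in ARP1, 12358 and 14292 in OCI-MY5, and 7137 and 9478 in OPM2. On both probe sets the 3 lines did not overlap, with ARP1 lowest, OPM2 between and OCI-MY5 highest. The share of all probe sets on which the 3 lines did not overlap was not computed. The third bright probe set, 224848_at, read 2664 and 2560.1 in ARP1, 5778 and 7513 in OCI-MY5, and 3033 and 4895 in OPM2, in the same order. Both OCI-MY5 arrays lay above the other 4 on 4 of the 7 CDK6 probe sets, and both ARP1 arrays below the other 4 on 5 of 7. Over all probe sets these patterns held for 8.72% and 9.82%, and over the 24 members for 6 and 9.

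CDK6 was higher in OCI-MY5 than in ARP1 by 1.57 ± 0.20 on 224851_at (2.97-fold, limma adjusted p = 0.00301), by 1.54 ± 0.19 on 224847_at (adjusted p = 0.00325), by 1.33 ± 0.23 on 224848_at (adjusted p = 0.0145) and by 1.47 ± 0.27 on 243000_at (adjusted p = 0.0196). On the dimmer 207143_at, 235287_at and 231198_at the differences were 0.84 ± 0.42, 1.08 ± 0.44 and 0.60 ± 0.89, and none was called. OPM2 exceeded ARP1 by 1.15 ± 0.20 on 224851_at (adjusted p = 0.00353), by 0.85 ± 0.19 on 224847_at (adjusted p = 0.0178) and by 1.01 ± 0.27 on 243000_at (adjusted p = 0.0387). OPM2 lay below OCI-MY5 on 224847_at by a difference of -0.69 ± 0.19 (adjusted p = 0.0484), and the other 6 probe sets were not called. Without the OPM2 CD24+ array that last difference was -0.49 ± 0.17 (adjusted p = 0.14), and those against ARP1 were 1.41 ± 0.14 on 224851_at (adjusted p = 0.000719), 1.05 ± 0.17 on 224847_at (adjusted p = 0.00751) and 0.79 ± 0.24 on 243000_at (adjusted p = 0.088). Leaving out single arrays ended the OPM2 calls against ARP1 1 time in 6 on 224851_at, 2 times on 224847_at and 5 times on 243000_at, with adjusted p up to 0.071, 0.223 and 0.28, and that against OCI-MY5 5 times, with up to 0.35. The OCI-MY5 calls against ARP1 on the 4 probe sets were lost without either ARP1 array, with adjusted p between 0.0606 and 0.259, and without the OCI-MY5 CD24- array, with 0.0511 to 0.2. Those of 224848_at and 243000_at were also lost without the OCI-MY5 CD24+ array (adjusted p = 0.0564 and 0.191), and the differences stayed between 1.14 and 1.69 under any omission.

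CDK4, the other partner of the D cyclins, has 1 probe set, 202246_s_at. It read 5801 and 5469 in ARP1, 5330.4 and 4401 in OCI-MY5, and 3590.1 and 5723 in OPM2. The OPM2 pair overlapped both other lines. The differences were -0.31 ± 0.22 for OPM2 minus ARP1 (limma adjusted p = 0.457), -0.10 ± 0.22 for OPM2 minus OCI-MY5 and -0.22 ± 0.22 for OCI-MY5 minus ARP1. Without the OPM2 CD24+ array, which held the lowest value, the first became 0.02 ± 0.16.

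RB1, the substrate of these kinases and a tumour suppressor, was highest in OPM2. On 203132_at it read 2694 and 3403 in ARP1, 2132 and 2586 in OCI-MY5, and 5579 and 5594 in OPM2. The OPM2 arrays lay above the other 4 and were close to each other, and the OCI-MY5 pair was the lowest. RB1 was higher in OPM2 than in OCI-MY5 by 1.24 ± 0.18 (2.37-fold, limma adjusted p = 0.00128) and than in ARP1 by 0.88 ± 0.18 (1.84-fold, adjusted p = 0.01). The call against OCI-MY5 held without any 1 array (adjusted p at most 0.0287), and that against ARP1 was lost without the ARP1 CD24+ array (0.71, adjusted p = 0.158). OCI-MY5 minus ARP1 was -0.36 ± 0.18 (adjusted p = 0.462). The second probe set, 211540_s_at, was dim, from 12.0 to 161, and 2 of its 6 values lay within the background range. Its differences had standard errors of 0.93 and none was called.

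CDKN2A was bright in each line on 2 of its 3 probe sets. The gene gives the CDK4 and CDK6 inhibitor p16-INK4A and, from another start site and reading frame, p14-ARF, which acts through p53. The labels and tables used here do not say which of these transcripts a probe set reads. The 250 bases before each of its RefSeq start sites are shown because the array values cannot be assigned to one of them; both lie on the minus strand of chromosome 9 (GRCh38.p14), at chr9:21995325-21995574 for the outer and chr9:21974858-21975107 for the inner start.
CDKN2A outer start: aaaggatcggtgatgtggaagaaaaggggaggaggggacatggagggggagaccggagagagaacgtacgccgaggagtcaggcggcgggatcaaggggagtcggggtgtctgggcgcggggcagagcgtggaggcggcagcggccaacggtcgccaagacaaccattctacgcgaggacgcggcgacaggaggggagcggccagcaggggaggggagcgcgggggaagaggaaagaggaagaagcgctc
CDKN2A inner start: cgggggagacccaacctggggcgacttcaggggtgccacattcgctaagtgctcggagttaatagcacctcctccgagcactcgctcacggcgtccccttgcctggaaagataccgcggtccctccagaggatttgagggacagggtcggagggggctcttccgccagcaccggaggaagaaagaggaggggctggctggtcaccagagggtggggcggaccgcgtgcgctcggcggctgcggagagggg
The windows hold 24 and 20 CpG pairs, against a median of 11 over 35116 RefSeq windows of the same length, and 78.4% and 69.8% of windows have as many or fewer. CpG-rich starts of this kind are where methylation can silence the gene; methylation was not measured in these samples.

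Probe set 209644_x_at of CDKN2A read 5614 and 5167 in ARP1, 10876 and 9303 in OCI-MY5, and 7056 and 7489 in OPM2. Probe set 207039_at read 1803 and 2167 in ARP1, 3723 and 3523 in OCI-MY5, and 3104 and 2461 in OPM2. On both the lines did not overlap, and the order was ARP1 lowest, then OPM2, then OCI-MY5, as for the bright CDK6 probe sets. How often the lines were apart in this way over all probe sets was not computed. CDKN2A was higher in OCI-MY5 than in ARP1 by 0.90 ± 0.16 on 209644_x_at (1.86-fold, limma adjusted p = 0.0189) and by 0.87 ± 0.18 on 207039_at (1.82-fold, adjusted p = 0.0369). OPM2 was called against neither line: OPM2 minus ARP1 was 0.43 ± 0.16 (adjusted p = 0.139) and 0.48 ± 0.18 (adjusted p = 0.141), and OPM2 minus OCI-MY5 -0.47 ± 0.16 (adjusted p = 0.111) and -0.39 ± 0.18 (adjusted p = 0.248). Both calls were lost without any one of the ARP1 or OCI-MY5 arrays, with adjusted p of 0.135 to 0.44 and differences of 0.74 to 1.01. The third probe set, 211156_at, read 6.67 to 27.2 and lay within the background range on all 6 arrays. A name ending in x_at marks a probe set that can bind related transcripts, and the part of such binding in these differences was not tested.

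CDKN1B, the p27 inhibitor, was bright and nearly level. Its probe set, 209112_at, read 15380 and 16219 in ARP1, 13801.5 and 13749 in OCI-MY5, and 13515 and 13714 in OPM2. Both ARP1 arrays lay above the other 4, but the differences were small, at -0.21 ± 0.16 for OPM2 minus ARP1 (limma adjusted p = 0.492), -0.02 ± 0.16 for OPM2 minus OCI-MY5 and -0.20 ± 0.16 for OCI-MY5 minus ARP1. Of the member inhibitors that were analysed neither was absent from a line: CDKN2A on 2 probe sets and CDKN1B on its 1 exceeded the background range on all 6 arrays. No member gene had all its probe sets within the background range of all 6 arrays. With the highest TrpnX value of any array as the limit, a choice made after the data were seen, 1 gene did, CCND1.

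E2F1, which RB1 holds in check, was lowest in ARP1 on its representative probe set. On 204947_at it read 194 and 150.2 in ARP1, 351 and 428 in OCI-MY5, and 485 and 343 in OPM2. The OCI-MY5 and OPM2 arrays overlapped, and both ARP1 arrays lay below them. OPM2 minus ARP1 was 1.18 ± 0.34 (limma adjusted p = 0.0514) and OCI-MY5 minus ARP1 1.11 ± 0.34 (adjusted p = 0.149), and neither was called. The other probe set, 2028_s_at, read 212 and 247 in ARP1, 180.1 and 223 in OCI-MY5, and 560 and 260 in OPM2. Here OCI-MY5 and ARP1 overlapped, with OCI-MY5 minus ARP1 at -0.18 ± 0.41, so the probe sets differ on where OCI-MY5 stands. OPM2 minus ARP1 was 0.70 ± 0.41 on it, and 0.17 ± 0.35 without the OPM2 CD24+ array.

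The E2F1 gene carries matches to the E2F binding motif just before its own start, and is known to be a target of E2F factors. Its 250 bases before the RefSeq start are shown for that reason, from chr20:33686386-33686635 (GRCh38.p14, minus strand), with matches in capitals.
E2F1: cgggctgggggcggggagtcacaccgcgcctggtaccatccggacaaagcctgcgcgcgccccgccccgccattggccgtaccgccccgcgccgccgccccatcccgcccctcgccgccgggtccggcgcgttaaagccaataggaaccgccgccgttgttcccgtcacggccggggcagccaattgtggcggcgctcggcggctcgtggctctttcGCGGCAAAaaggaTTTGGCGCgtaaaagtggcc
The letters searched, on both strands, were TTTCGCGC, TTTGGCGC, TTTCCCGC and TTTGCCGC. The window holds 2 matches, which do not overlap. Of the 14 windows of 8 listed genes in RefSeq, 3 of them of CDKN2C and none of CCND1 or CCND2, 1 held a match, and of all 35116 windows 2.79%. A match describes the sequence and is no measure of binding.

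**Figure D2:**
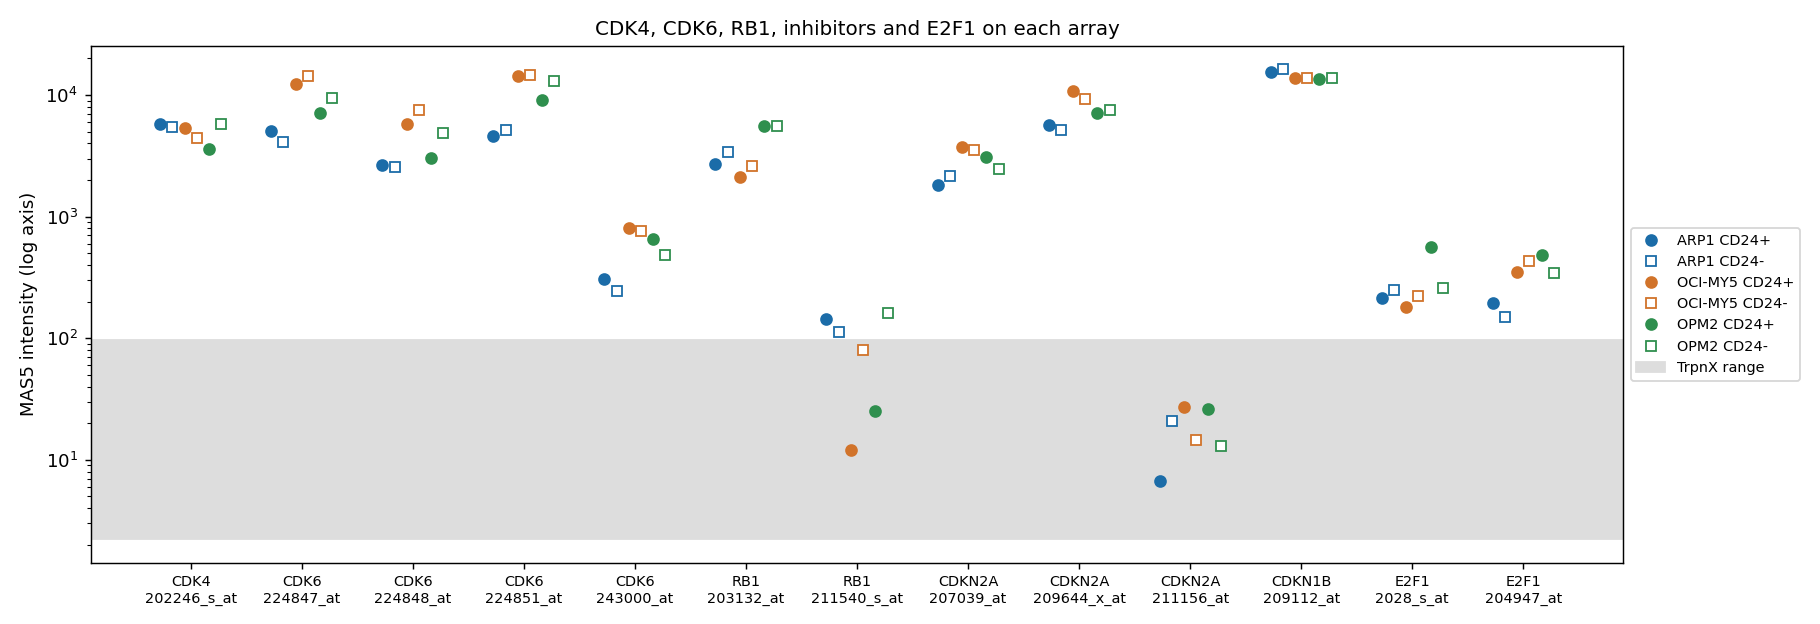
MAS5 intensity (log axis) of the probe sets of CDK4, RB1, CDKN2A, CDKN1B and E2F1 and of 4 CDK6 probe sets on each array, 1 point per array, coloured by line and filled for CD24+, with the TrpnX range of 2.23 to 96.4 in grey. The 4 CDK6 probe sets and the 2 bright CDKN2A probe sets have ARP1 lowest and OCI-MY5 highest, RB1 203132_at has OPM2 highest, and CDKN1B is nearly level.

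Over the 24 member probe sets, 7 were called in OPM2 minus ARP1 (29.2%, of 3 genes, all 7 higher in OPM2), against 10.7% of all probe sets tested, 4.42% higher and 6.29% lower. In OPM2 minus OCI-MY5 5 were called (20.8%, 4 higher and 1 lower in OPM2), against 10.3%, 4.48% higher and 5.83% lower. In OCI-MY5 minus ARP1 6 were called (25% of members, all 6 higher in OCI-MY5), against 2.38%, 1.04% higher and 1.34% lower. The table holds many dim probe sets that are seldom called. Among probe sets at or above the median brightness 8, 5 and 6 of 19 members were called in the same order, against 24.5%, 23.4% and 5.8%, so in the comparison of OPM2 with OCI-MY5 the members were called about as often as other bright probe sets. The calls came from CCND2, CDK6, RB1 and CDKN2A, whose probe sets share a transcript and are not independent. The median size of the difference was 0.76, 0.57 and 0.74 for members and 0.63, 0.63 and 0.45 for all probe sets. Line took 83.5% of the sum of squares of the median member probe set and 53.8% of the median of all. Fraction took 3.64% and 8.79%. Line has more levels than fraction, so its share is the larger on average even for random values. These shares were not compared at like brightness, and 19 of the 24 members were at or above the median brightness.

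The calls rest on letting limma's prior variance follow intensity: with a single prior variance all 18 were lost, and after centring arrays on their medians 17 were. Centring moves the median of all probe sets by -0.27 in OPM2 minus ARP1, by -0.39 in OPM2 minus OCI-MY5 and by 0.13 in OCI-MY5 minus ARP1. The OPM2 CD24+ array had the highest median, and its part in the lost calls was not tested. No difference behind these 18 calls changed sign under any setting tried.

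**Figure D3:**
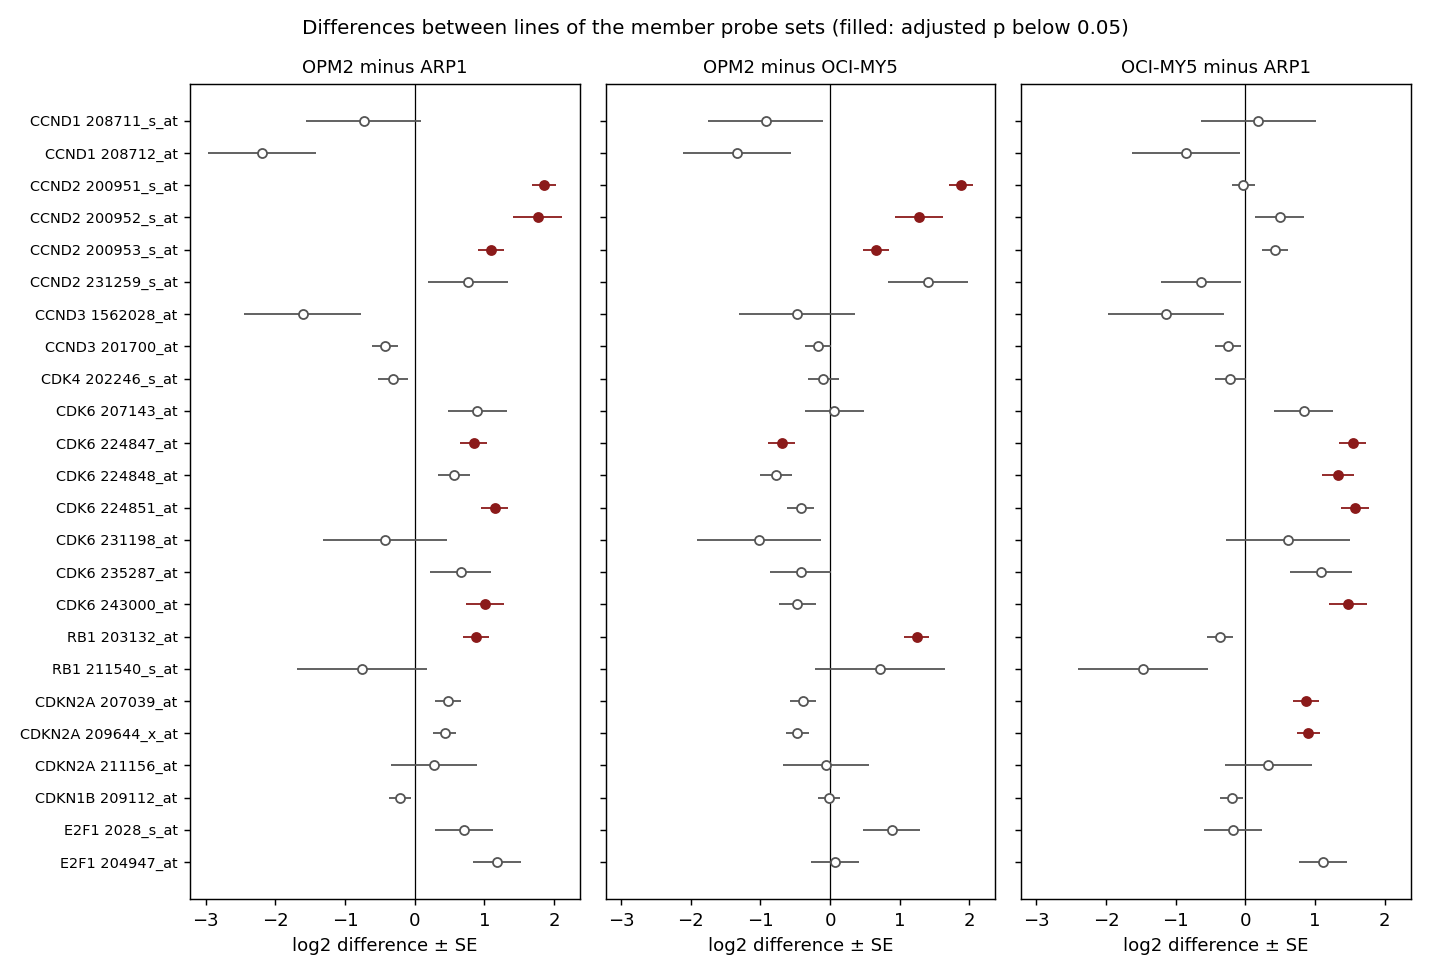
Difference of each of the 24 member probe sets in the 3 comparisons of lines, on the log2(intensity + 16) scale with its standard error. Filled red points have a limma adjusted p below 0.05; those of CCND2 lie to the right in both OPM2 comparisons, and those of CDK6 in OCI-MY5 minus ARP1.

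Other regulators of G1 were taken from a list of 28 genes, each at its brightest probe set. In OPM2 minus ARP1 1 was higher, 3 were lower and 24 were not called; in OPM2 minus OCI-MY5 4 were higher, 7 lower and 17 not called; in OCI-MY5 minus ARP1 2 were higher, 2 lower and 24 not called. Of all probe sets 10.7%, 10.3% and 2.38% were called, and 24.5%, 23.4% and 5.8% of those at or above the median brightness. The medians were -0.14, -0.22 and 0.03, against 0.13, 0.19 and -0.06 over all probe sets. After centring arrays on their medians 1, 4 and 0 of the 28 were called in the same order, and without the intensity trend 0, 1 and 0. The pocket protein RBL1, a relative of RB1, was higher in OPM2, as RB1 was. It read 663 and 576 in ARP1, 357 and 421 in OCI-MY5, and 1283 and 1273.5 in OPM2, by 1.68 ± 0.23 over OCI-MY5 (limma adjusted p = 0.000779) and 1.03 ± 0.23 over ARP1 (adjusted p = 0.0141). Both RBL1 calls were lost after centring (adjusted p = 0.0963 and 0.346) and without the intensity trend (adjusted p = 0.0652 and 0.154).

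Of 4 other CDK inhibitors on the list, CDKN1A and CDKN2B were called in comparisons with OCI-MY5, where CDKN1A was the lower and CDKN2B the higher. CDKN1C and CDKN2D were not called in any comparison of lines. CDKN1A (p21) read 284.7 and 261 in ARP1, 26.8 and 44.9 in OCI-MY5, and 492 and 448 in OPM2. Both OCI-MY5 arrays lay within the background range, so no fold against the level there can be given. CDKN1A was called higher than in OCI-MY5 both in OPM2 (limma adjusted p = 0.000798) and in ARP1 (adjusted p = 0.0155). Its geometric mean was 11.1-fold in OPM2 and 6.44-fold in ARP1 that of the highest TrpnX values of the OCI-MY5 arrays. These folds depend on the limit chosen, and the p-values are not tests of them. CDKN2B, an INK4 inhibitor whose gene lies beside CDKN2A, read 750.5 and 813 in ARP1, 1798 and 1662 in OCI-MY5, and 774 and 531 in OPM2. Its difference was 1.13 ± 0.23 for OCI-MY5 minus ARP1 (adjusted p = 0.0299) and -1.41 ± 0.23 for OPM2 minus OCI-MY5 (adjusted p = 0.00248). FBXW7, part of a ligase that marks cyclin E for destruction, was higher in OCI-MY5 than in ARP1 by 1.23 ± 0.19 (adjusted p = 0.00923), and OPM2 minus OCI-MY5 was -1.29 ± 0.19 (adjusted p = 0.00149). Lower in OPM2 was E2F6, an E2F that represses transcription, by differences of -1.79 ± 0.18 against ARP1 (adjusted p = 0.000136) and -1.54 ± 0.18 against OCI-MY5 (adjusted p = 0.000341). E2F5 was lower in OPM2 than in ARP1 by a difference of -1.24 ± 0.34 (adjusted p = 0.0425), and so was CCNH, a subunit of the kinase that activates CDKs (-0.80 ± 0.18, adjusted p = 0.0184). Without the OPM2 CD24+ array E2F5 was at -0.67 (adjusted p = 0.0743) and CCNH at -0.68 (adjusted p = 0.0502). CDK7, the kinase that CCNH activates, was lower in OPM2 than in OCI-MY5 (-1.42 ± 0.27, adjusted p = 0.00613). Without the OPM2 CD24+ array this difference was -0.98. Against ARP1 CDK7 was not called (-0.70 ± 0.27, adjusted p = 0.14), and neither was CCNH against OCI-MY5 (-0.45 ± 0.18, adjusted p = 0.177). E2F2 was lower in OCI-MY5 than in ARP1 (-0.85 ± 0.19, adjusted p = 0.0432).

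**Figure D4:**
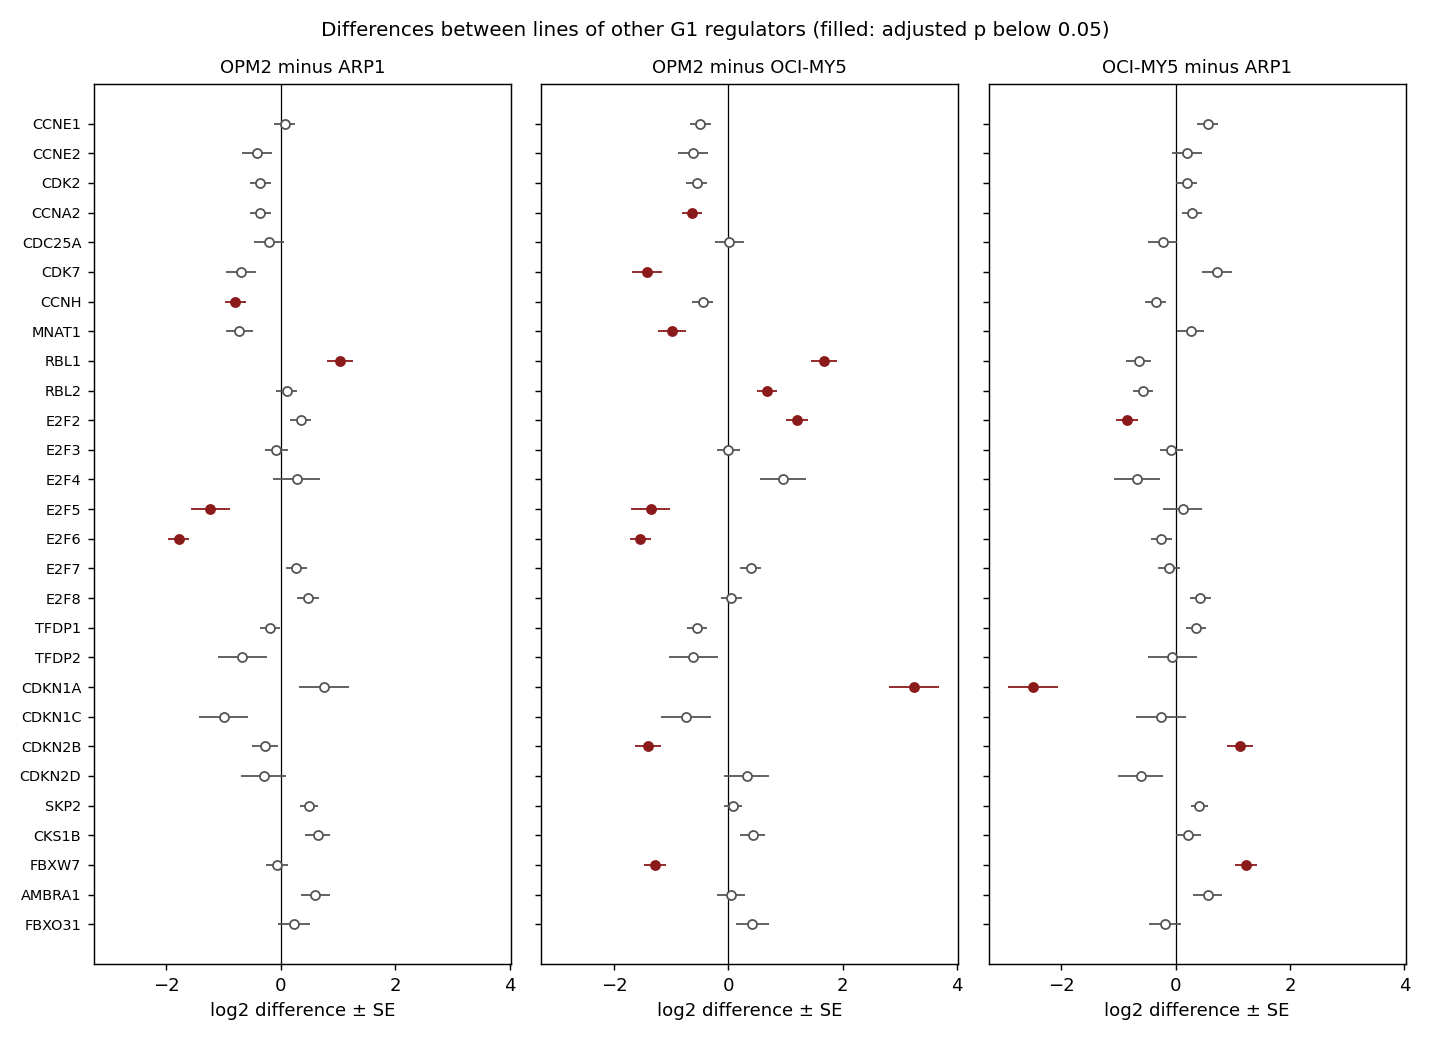
Difference of 28 other G1 regulators in the 3 comparisons of lines, on the log2(intensity + 16) scale with its standard error, each at its brightest probe set. Filled red points have a limma adjusted p below 0.05; CDKN1A lies farthest from 0 in the comparisons with OCI-MY5, and RBL1 is higher and E2F6 lower in OPM2.

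Of 17 measured E2F target genes 4 were higher and 2 lower in OPM2 than in ARP1, 2 were higher and 2 lower than in OCI-MY5, and 1 was higher in OCI-MY5 than in ARP1. Of all probe sets 10.7%, 10.3% and 2.38% were called in these comparisons, and 24.5%, 23.4% and 5.8% of those at or above the median brightness. In the comparisons with OPM2 the called targets went in both directions, as did the calls over all probe sets. TK1, thymidine kinase, was higher in OPM2 than in ARP1 by 1.36 ± 0.17 (limma adjusted p = 0.000626), and RRM1, the large subunit of ribonucleotide reductase, by 1.37 ± 0.18 (adjusted p = 0.000713). TYMS, thymidylate synthase, was higher by 1.01 ± 0.18 (adjusted p = 0.00521). RRM2, the small subunit of the same reductase, was lower by a difference of -1.74 ± 0.20 (adjusted p = 3e-04), with 49599 and 37795 in ARP1 and 12533 and 13427 in OPM2. Against OCI-MY5 RRM2 was at -1.72 ± 0.20 (adjusted p = 0.00029), TK1 at 1.05 ± 0.17 (adjusted p = 0.00293), and the helicase subunits MCM6 and MCM7 at 0.87 ± 0.18 (adjusted p = 0.00931) and -0.84 ± 0.16 (adjusted p = 0.00557). RRM1 and TYMS were not called there, at 0.19 ± 0.18 (adjusted p = 0.587) and 0.36 ± 0.18 (adjusted p = 0.295). The target called in OCI-MY5 minus ARP1 was RRM1, at 1.18 ± 0.18 (adjusted p = 0.00833). After centring 1 call was left against ARP1 and 1 against OCI-MY5, both of RRM2, and none in OCI-MY5 minus ARP1; without the intensity trend the counts were 0 in all 3 comparisons.

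Between the arrays labelled CD24+ and CD24- no member passed the test, and CD24 itself did not separate them. Of 24 member probe sets 0 were called by limma, and 0 had an unadjusted p below 0.05, with 0% of all probe sets called and 1267 below 0.05 unadjusted. With the cell line as a block 0 were called as well, 1 member was below 0.05 unadjusted (CCND2 200952_s_at, -0.65 ± 0.22, adjusted p = 0.842), and 3046 of all probe sets were. A p that misses the threshold with 3 arrays a side does not show that the fractions were alike. The direction was the same in all 3 lines for 5 of the 24 probe sets, 2 higher and 3 lower in CD24+. The share of all probe sets with 1 direction in all 3 lines was not computed. The count is therefore a description and no result about the members.

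Among the representative probe sets the mean difference, CD24+ minus CD24-, was -0.01 ± 0.21 for CCND2 (SD over 3 lines), -0.11 ± 0.22 for CCND3 and -0.47 ± 0.74 for CCND1. CDK6 was at -0.23 ± 0.26 and CDK4 at -0.10 ± 0.50. RB1 was at -0.21 ± 0.18, CDKN2A at 0.09 ± 0.16, CDKN1B at -0.03 ± 0.04 and E2F1 at 0.18 ± 0.40. Of these, CDK6 and RB1 had the same sign in all 3 lines. For ARP1, OCI-MY5 and OPM2 in turn the RB1 difference was -0.34, -0.28 and -0.0041. For CDK6 it was -0.15, -0.02 and -0.53. The CDK4 difference of -0.67 in OPM2 had the opposite sign to those of 0.08 in ARP1 and 0.28 in OCI-MY5, and it involves the array with the high spike-ins. Without OPM2 or without that array CDK4 turned positive, as did CCND3. These differences rest on single arrays.

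**Figure D5:**
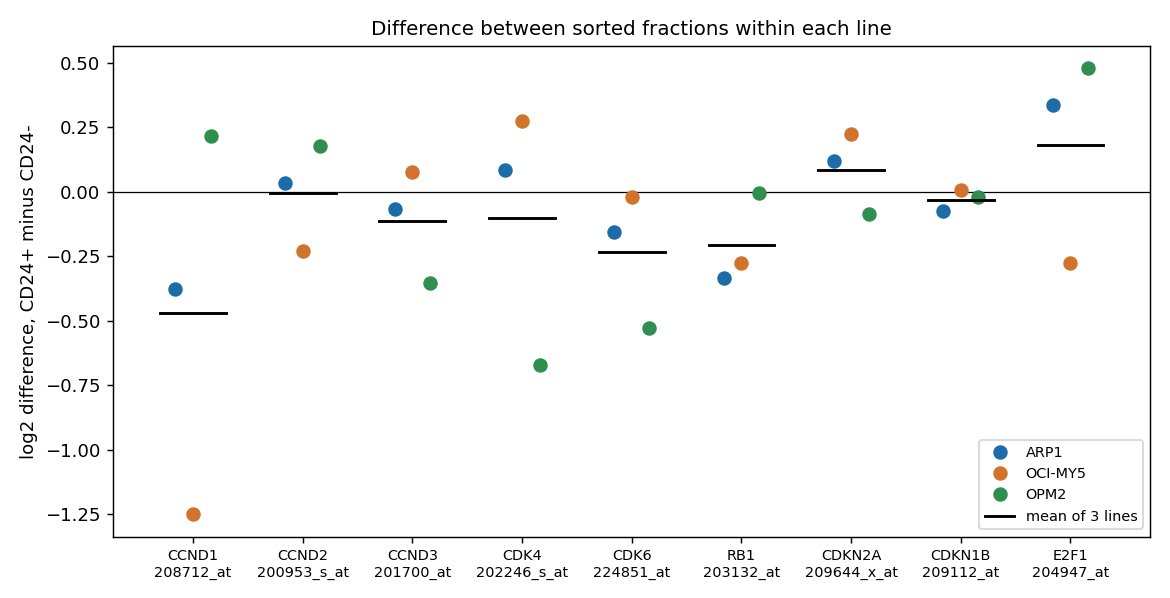
Difference between CD24+ and CD24- cells within each line, on the log2(intensity + 16) scale, for the representative probe set of each of the 9 genes; points are single lines and the bar is their mean. The bars lie within -0.47 and 0.18, and 7 of the 9 genes have points on both sides of 0.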

How the data were processed

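RNA of 6 samples was measured on Affymetrix U133 Plus 2.0 arrays. The deposited values are intensity per probe set on a linear scale, computed by the authors by MAS5 (series' design text) in Affymetrix Expression Console 1.1, per the submitters' processing notes. The scaling between arrays is not given in the sources used here. Of 54675 probe sets 62 controls were left out. Names came from the platform annotation (41091 probe sets with 1 gene symbol, 1801 with several, 11721 with none), and 41037 matched the RefSeq gene table of GRCh38.p14 by Entrez ID. Promoter sequences are from RefSeq, GRCh38.p14.

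Log2(intensity + 16) was fitted with limma 3.58.1 in R 4.3.3 (lmFit, eBayes with an intensity trend, two-sided) on every probe set, without a filter on brightness: by line for the comparisons of lines, and by fraction without a block for CD24+ minus CD24-. The fits were tested on simulated data. The replicate numbers stand for the lines; deviations from group means of the paired arrays correlated at 0.34 (ARP1), 0.32 (OCI-MY5) and 0.45 (OPM2), and those of unlike lines at -0.30 to 0.05, so they pair the samples. A gene's representative is its probe set with the highest mean log2 value. Only some of the called genes of the lists were named, not in every comparison and not always those with the largest differences. A likeness was ranked by Pearson correlation over the 6 arrays. The members and lists were chosen with earlier results of these data known. Alternatives were other pseudocounts (1 and 64), a brightness filter, other scalings, no trend, 1 probe set per gene, the block or the fraction as a term, and leaving out arrays.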

Additional observations from a re-analysis of the deposited data

How the results depend on the processing

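The counts of called members, 7, 5 and 6 in OPM2 minus ARP1, OPM2 minus OCI-MY5 and OCI-MY5 minus ARP1, were within 1.5 times with a pseudocount of 1, the brightness filter, quantile normalization and the fraction as a term. They were 1, 0 and 0 after centring arrays on their medians and 0 in each without the intensity trend; with 1 probe set per gene, which leaves fewer to call, they were 4, 2 and 2, and with a pseudocount of 64 the second was 2. Among all probe sets 5850, 5628 and 1299 were called, 2519, 2607 and 69 after centring, 1283, 1192 and 1 without the trend, and 3689 and 3705 in the first 2 with 1 probe set per gene. Of the calls 41.2% and 43.4% were higher in OPM2 against ARP1 and OCI-MY5, and 23.4% and 23.6% after centring. The cause of these shifts was not tested.

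Leaving out each array in turn gave 1 to 12, 2 to 8 and 0 to 7 called members and 2041 to 10645, 2464 to 10566 and 72 to 3455 of all probe sets; of the 18 calls 15 were lost without the ARP1 CD24+ array, 13 without ARP1 CD24-, 8 and 10 without those of OCI-MY5, and 3 and 1 without those of OPM2. For CD24+ minus CD24- the count was 0 in every setting, the replicate block included, and the block changed no call. Uncalled differences there changed sign with the setting: CDKN2A 209644_x_at was -0.24 and E2F1 204947_at -0.15 after centring, the same with the replicate block added (chosen after the data were seen), and CDKN1B 209112_at 0.019 with quantile normalization. Without 1 array or line they ran from -1.23 to 0.016 for CCND1, -0.34 to 0.24 for CCND2, -0.24 to 0.046 for CCND3, -0.29 to 0.18 for CDK4, -0.71 to 0.20 for CDK6, -0.61 to 0.10 for RB1, -0.18 to 0.30 for CDKN2A, -0.088 to 0.049 for CDKN1B and -0.24 to 0.52 for E2F1. The count of member genes within the background range was 0 and became 1 with the highest TrpnX value of any array as the limit.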
